A study of Homo sapiens with 6 samples.

Results

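The genes described here encode the carnitine shuttle and the first enzymes of mitochondrial fatty acid beta-oxidation. They were chosen by name, as the 10 symbols CPT1A, CPT1B, CPT1C, CPT2, SLC25A20, ACADS, ACADM, ACADL, ACADVL and HADHA, and a probe set was annotated to 9 of them among the 17687 genes measured. The signal of CPT1C is not analysed here, because no probe set carried its symbol in the annotation used. Its promoter windows are counted below. Each of the 9 genes had 1 probe set. The cells were 4175 cells, which derive from MDA-MB-231, a human breast cancer line, and are labelled as its lung variant. Every culture received an siRNA 24 hours after plating and was kept with it for 48 hours. In the group called siPGC1alpha (3 arrays) it was directed against PGC-1alpha, the product of PPARGC1A, and in the group called sicontrol (3 arrays) it was a control siRNA. The sources used here do not give the siRNA sequences. Whether the replicates were separate cultures is not labelled, so the p-values reflect the scatter of these 6 samples alone, and that scatter may be technical. RNA was read on single-colour Affymetrix arrays after labelling of 10 ng of total RNA per sample, and all values below are log2 signals per probe set.

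Long-chain fatty acids enter the mitochondrial matrix as carnitine esters. CPT1 on the outer membrane makes the ester and is inhibited by malonyl-CoA, the carrier SLC25A20 exchanges it for free carnitine across the inner membrane, and CPT2 turns it back into acyl-CoA. Acyl-CoA dehydrogenases of different chain-length preference then start each round of shortening, and the trifunctional protein, of which HADHA is the alpha subunit, carries out the following steps on long chains. PGC-1alpha is known as a coactivator of PPARalpha and the estrogen-related receptors, which induce genes of this pathway in heart, muscle and liver.

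Promoter sequence is shown for 3 of the genes. SLC25A20 and ACADS had signals above the controls on every siPGC1alpha array. The start of HADHA faces that of its partner subunit HADHB at a distance of 307 bases. ACADVL, whose signals lay below the controls on every siPGC1alpha array, is not shown. The sequences are the 250 bases before the gene's start in RefSeq on GRCh38.p14, written 5′ to 3′ on the gene's strand. Capitals mark the GC box GGGCGG and the GABP motif CCGGAAG on either strand. They cover chr3:48898883-48899132 on the minus strand for SLC25A20, chr12:120725576-120725825 on the plus strand for ACADS and chr2:26244633-26244882 on the minus strand for HADHA.
SLC25A20: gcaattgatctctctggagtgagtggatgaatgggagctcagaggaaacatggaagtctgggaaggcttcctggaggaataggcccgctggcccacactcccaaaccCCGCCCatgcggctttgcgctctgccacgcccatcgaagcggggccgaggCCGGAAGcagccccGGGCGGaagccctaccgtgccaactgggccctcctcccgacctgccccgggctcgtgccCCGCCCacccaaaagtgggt
ACADS: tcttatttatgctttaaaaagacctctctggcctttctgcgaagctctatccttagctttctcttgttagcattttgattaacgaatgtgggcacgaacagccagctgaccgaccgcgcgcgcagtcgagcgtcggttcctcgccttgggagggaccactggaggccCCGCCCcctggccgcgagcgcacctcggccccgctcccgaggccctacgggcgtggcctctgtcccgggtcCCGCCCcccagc
HADHA: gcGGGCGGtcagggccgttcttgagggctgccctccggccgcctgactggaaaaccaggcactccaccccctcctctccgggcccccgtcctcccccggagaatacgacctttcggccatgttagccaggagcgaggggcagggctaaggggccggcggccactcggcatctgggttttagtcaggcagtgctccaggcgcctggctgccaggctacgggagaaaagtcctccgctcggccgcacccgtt

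RefSeq windows of this kind were found for 9 of the 10 symbols, 12 windows in all, and not for CPT1B. Of these 12 windows, 8 held a GC box, against 42.6% of the 35116 windows of all genes. The GABP motif was found in 2 of them, those of CPT2 and SLC25A20, against 8.52% of all windows. None of the 12 held the nuclear receptor half-site AGGTCA, which 12.1% of all windows held. The longer motifs built on it, TCAAGGTCA for estrogen-related receptors (0.319% of all windows) and for PPARs 2 half-sites in the same direction 1 base apart (0.0171%), were therefore not found either. The NRF1 motif GCATGCGC was found in 1 of the 12, a window of CPT1C, and in 2.63% of all windows. Both strands were searched, and these are matches of letters and not binding sites. Sequence outside the 250 bases and variants of the motifs were not searched, so such elements may lie elsewhere or differ in letters.

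The array of siPGC1alpha replicate 1 stood apart before any comparison. Across genes it correlated with the other 5 arrays at a Pearson r of 0.585 to 0.604, whereas those correlated with one another at 0.995 to 0.996, and its values spread less (SD 1.66 against 2.06 to 2.09). Differences of the members and of the pathway genes are therefore given with it and without it. PPARGC1A itself, by its 1 probe set, gave 6.45, 6.49 and 6.49 in the controls and 7.95, 6.52 and 6.47 on siPGC1alpha replicates 1, 2 and 3. It was not lower on any siPGC1alpha array than on the lowest control array. Without replicate 1 it differed by 0.019 (95% interval -0.15 to 0.19, SE 0.071, limma adjusted p = 0.9998) and with it by 0.50 (interval -0.57 to 1.57, SE 0.44, adjusted p = 0.663). The arrays therefore do not show a knockdown of the transcript, and "siPGC1alpha" is used below as the label only. The control mean of PPARGC1A, 6.48, lay within those of the marker genes of other tissues described below, 4.08 (ADIPOQ) to 9.99 (ACTA1). How much of the PPARGC1A signal came from its transcript was not tested, and a knockdown may have been missed.

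The line was checked against marker genes. VIM (12.80), AXL (11.63) and CD44 (11.04), which mark the mesenchymal state of MDA-MB-231, had control means far above the negative control probe sets, whose 95th percentile was 5.38 to 5.56 on the control arrays. Of the 7 measured genes listed as absent or low in this line, CDH1 (3.97) and PGR (2.76) lay below that percentile and the other 5 above it. These were ESR1 (5.99), EPCAM (7.43), GATA3 (7.83), KRT18 (11.19) and KRT8 (11.61), and ERBB2 had no annotated probe set. The summed signal of each marker list of fat, muscle, liver, endothelium and leukocytes overlapped between replicates 2 and 3 and the controls. The summed adipocyte signal, for 4 of 4 genes, was 7.41 to 7.60 on the controls and 7.48 to 7.56 on these replicates. On replicate 1 it was 8.70.

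None of the 9 genes passed the test between the groups. By limma with Benjamini-Hochberg adjustment over all genes, 0 of 9 passed at 0.05 with all 6 arrays and 0 of 9 without replicate 1, where 0% of all 17687 genes passed in either case (lowest adjusted p = 0.663 and 0.9998). At an unadjusted p under 0.05, 3 genes of the whole table passed over 6 arrays (0.017%), among them 0 of the 9. Without replicate 1, 786 genes did (4.44%). Of these, 373 were higher (2.11% of all genes), among them SLC25A20 and ACADS, and 413 were lower (2.34%), among them 0 of the 9. Fewer cells holding a transcript and less of that transcript per cell cannot be told apart in such bulk samples.

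The carnitine palmitoyltransferases of the outer membrane differed by less than 0.1 between the groups without replicate 1. CPT1A, the form found in liver and most other tissues and the usual control point of the pathway, gave 7.77, 7.78 and 7.73 in the controls, with a mean of 7.76 ± 0.027 (SD, n = 3). It stood at 7.69, 7.80 and 7.89 on siPGC1alpha replicates 1, 2 and 3. Replicate 1 lay below all other arrays and replicates 2 and 3 above the controls. The difference without replicate 1 was 0.086 (SE 0.074, 95% interval -0.090 to 0.26), a ratio of 1.06 with an interval of 0.939 to 1.20, and with it 0.036 (SE 0.21).

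CPT1B, the muscle form, read 7.26, 7.49 and 7.35 on the controls, averaging 7.37 ± 0.12 (SD, n = 3), and 8.21, 7.57 and 7.35 on siPGC1alpha replicates 1 to 3. Replicate 3 lay among the controls and replicates 1 and 2 above them. The difference was 0.092 (SE 0.11, interval -0.16 to 0.34) without replicate 1 and 0.34 (SE 0.29) with it. The RefSeq gene overlaps the readthrough transcript CHKB-CPT1B, whose signal cannot be told from its own here. Signals of CPT1A and CPT1B are not ranked against each other, since probe sets respond differently.

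SLC25A20, the carnitine-acylcarnitine carrier, was among the members with the largest differences from the controls without replicate 1. It read 6.75, 6.55 and 6.71 on the control arrays, averaging 6.67 ± 0.11 (SD, n = 3), and 8.01, 6.88 and 6.93 on siPGC1alpha replicates 1, 2 and 3. All siPGC1alpha arrays lay above all control arrays. The difference was 0.24 (interval 0.025 to 0.45, SE 0.088, unadjusted p = 0.033, limma adjusted p = 0.9998) without replicate 1, a ratio of 1.18 with an interval of 1.02 to 1.36. When 1 further array was left out in turn, the difference ranged from 0.17 to 0.28 and the unadjusted limma p from 0.024 to 0.14. With all 6 arrays it was 0.60 (SE 0.36, adjusted p = 0.663).

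CPT2, the palmitoyltransferase of the inner membrane, lay close to the controls. It read 6.83, 7.12 and 6.92 on them, averaging 6.95 ± 0.15 (SD, n = 3), and 7.20, 6.87 and 7.01 on siPGC1alpha replicates 1 to 3. Replicates 2 and 3 fell within the range of the controls. The difference was -0.015 (SE 0.11, interval -0.27 to 0.24) without replicate 1 and 0.073 (SE 0.23) with it.

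**Figure D1:**
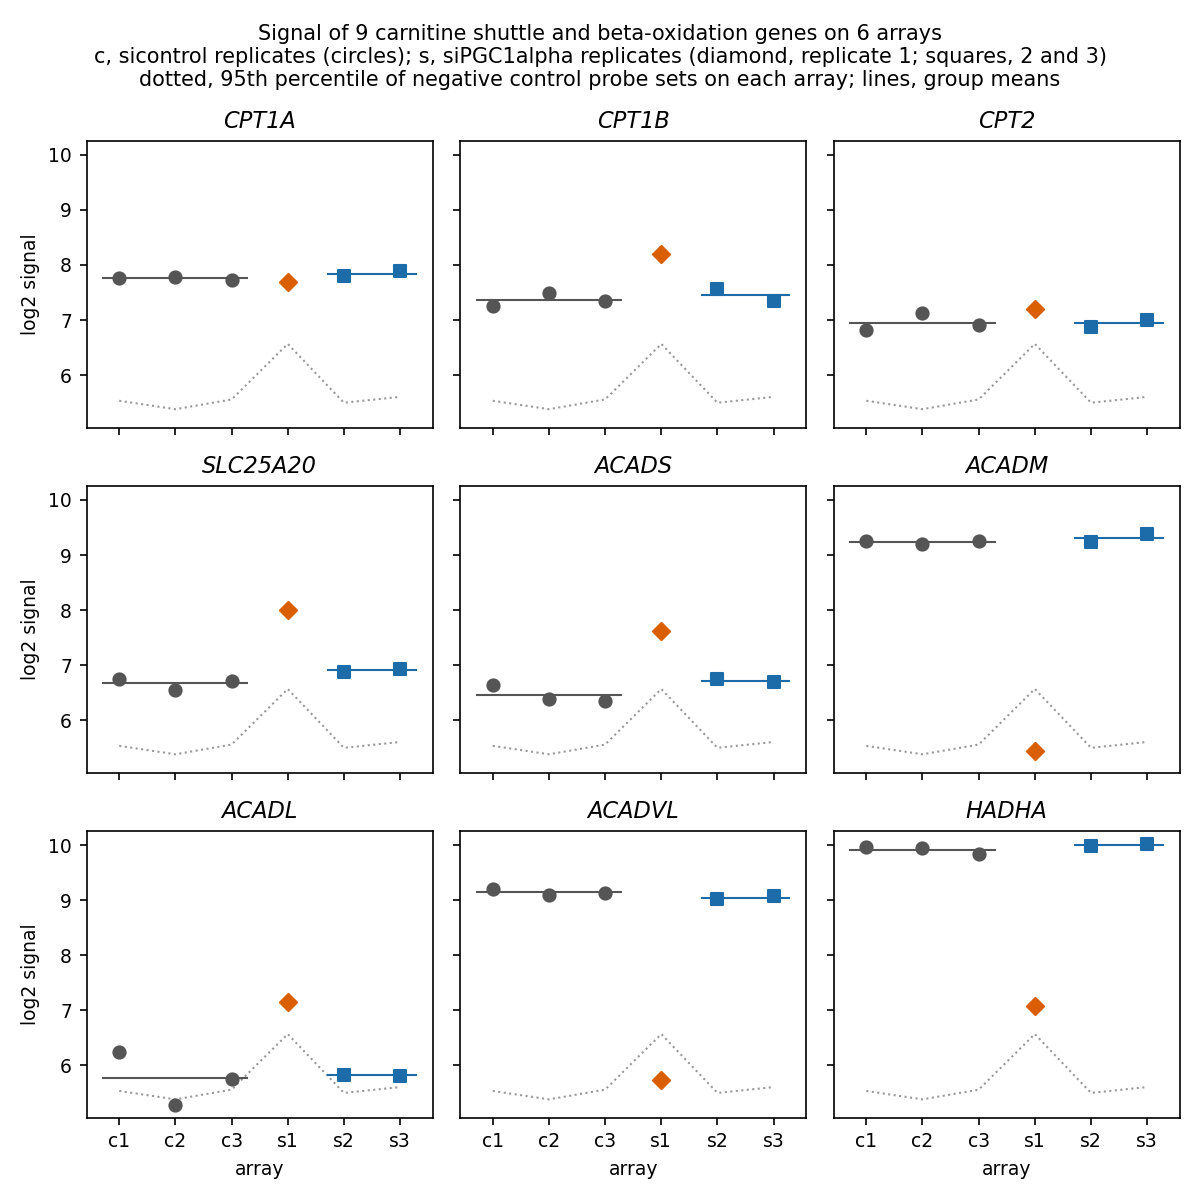
Log2 signal (vertical axis) of the 9 genes on each array, with sicontrol replicates as circles, siPGC1alpha replicate 1 as a diamond and siPGC1alpha replicates 2 and 3 as squares. Horizontal lines are the means of the 3 control arrays and of siPGC1alpha replicates 2 and 3, and the dotted line is the 95th percentile of the negative control probe sets on each array. Replicate 1 lies below the other arrays for CPT1A, ACADM, ACADVL and HADHA and above them for the other 5 genes.

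Among the acyl-CoA dehydrogenases, the short-chain and the very-long-chain enzyme differed from the controls in opposite directions, neither beyond the test. ACADS, which acts on short chains, read 6.64, 6.38 and 6.34 on the control arrays, averaging 6.45 ± 0.16 (SD, n = 3), and 7.62, 6.74 and 6.69 on siPGC1alpha replicates 1 to 3. All siPGC1alpha arrays lay above the controls, although the gap between sicontrol replicate 1 and siPGC1alpha replicate 3 was narrow. The difference was 0.26 (SE 0.11, interval 0.0079 to 0.52, unadjusted p = 0.045, limma adjusted p = 0.9998) without replicate 1, a ratio of 1.20 with an interval of 1.01 to 1.43. Leaving out 1 further array gave 0.21 to 0.36, with unadjusted limma p from 0.0042 to 0.16. With all 6 arrays it was 0.56 (SE 0.32, adjusted p = 0.663).

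ACADVL, the dehydrogenase of very long chains at the inner membrane, read 9.20, 9.09 and 9.13 on the controls, averaging 9.14 ± 0.053 (SD, n = 3), and 5.73, 9.01 and 9.07 on siPGC1alpha replicates 1 to 3. All siPGC1alpha arrays lay below all controls, replicates 2 and 3 by little. The difference was -0.098 (SE 0.075, interval -0.28 to 0.081) without replicate 1 and -1.20 (SE 0.91) with it. The gene overlaps DLG4 in RefSeq, as CPT2 does CZIB and HADHA does GAREM2.

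ACADM, the medium-chain dehydrogenase and a textbook target of PPARalpha, read 9.26, 9.20 and 9.25 on the controls, averaging 9.24 ± 0.030 (SD, n = 3), and 5.44, 9.24 and 9.39 on siPGC1alpha replicates 1 to 3. Replicate 2 lay among the controls and replicate 3 above them. The difference was 0.079 (SE 0.079, interval -0.11 to 0.27), a ratio of 1.06 with an interval of 0.926 to 1.20, without replicate 1. With replicate 1 it was -1.21 (SE 1.06).

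ACADL, the long-chain dehydrogenase, had the widest spread between control arrays of the 9 genes. It read 6.25, 5.28 and 5.75 on the control arrays, averaging 5.76 ± 0.48 (SD, n = 3), and 7.15, 5.82 and 5.81 on siPGC1alpha replicates 1 to 3. Sicontrol replicate 2 lay below the 95th percentile of the negative control probe sets of its own array (5.38). The difference was 0.054 (SE 0.25, interval -0.54 to 0.65) without replicate 1. It ranged from -0.19, without sicontrol replicate 2, to 0.30, without sicontrol replicate 1, when 1 further array was left out. With all 6 arrays it was 0.50 (SE 0.47).

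HADHA, the alpha subunit of the trifunctional protein, read 9.96, 9.95 and 9.83 on the controls, averaging 9.91 ± 0.075 (SD, n = 3), and 7.08, 9.99 and 10.02 on siPGC1alpha replicates 1 to 3. Replicates 2 and 3 lay above all controls by a small margin and replicate 1 far below. The difference was 0.089 (SE 0.079, interval -0.099 to 0.28) without replicate 1 and -0.89 (SE 0.81) with it. HADHB, the beta subunit transcribed from the facing start, differed by 0.058 (SE 0.074) and -0.54 (SE 0.52).

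**Figure D2:**
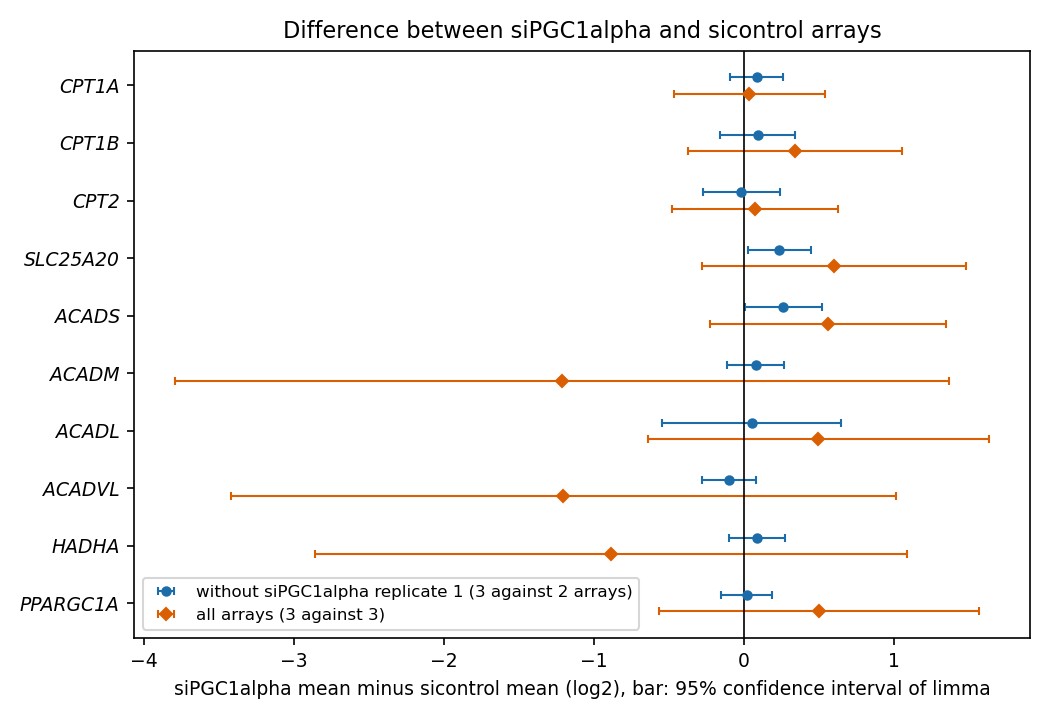
Difference between the siPGC1alpha and sicontrol means on the log2 scale (horizontal axis) for the 9 genes and PPARGC1A, with the 95% confidence interval from limma. Circles leave out siPGC1alpha replicate 1 and run from -0.098 for ACADVL to 0.26 for ACADS, and diamonds use all 6 arrays and carry wider intervals for each gene.

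Read together, most of the members lay slightly above the controls without replicate 1, with standard errors of 0.074 to 0.25. The genes were read on the same arrays, so their differences are not independent. Of the 9, 7 had a difference above 0 and 2 below, with a median of 0.086, beside 53.5% of all genes above 0 and a median of 0.0080. Groups did not overlap, with siPGC1alpha higher, for CPT1A, SLC25A20, ACADS and HADHA (4 of 9, where 11.3% of all genes did so), and with siPGC1alpha lower for ACADVL (1 of 9, against 8.42%). Over all 6 arrays the groups did not overlap for SLC25A20 and ACADS on the higher side (5.42% of all genes) and for ACADVL on the lower side (1.85%). The median over 6 arrays was 0.073 for the members and 0.19 for all genes.

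What the 5 arrays allow can be stated as intervals. Without replicate 1 the 95% interval of each of the 9 genes lay within a 2-fold change in either direction, as it did for 99.9% of all genes. The widest belonged to ACADL, from a ratio of 0.686 to 1.57. With replicate 1 the intervals of CPT1A and CPT2 lay within 2-fold and the other 7 did not, and 27.1% of all genes had such an interval. Standard errors of the members were 0.21 to 1.06 with replicate 1 and 0.074 to 0.25 without it.

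On siPGC1alpha replicate 1 the members parted, those with high control signals reading low. HADHA read 7.08 there, -2.84 from its control mean. ACADM and ACADVL, at 5.44 and 5.73, lay below the 95th percentile of the negative control probe sets of that array (6.57). Their signals stood -3.79 and -3.41 from the control means, and with that percentile in place of the signal the distances are -2.67 and -2.57, which serve as bounds. The differences over 6 arrays given for both genes rest on these signals. ACADL lay 1.38 above its control mean, SLC25A20 1.34, ACADS 1.16, CPT1B 0.84 and CPT2 0.25, and CPT1A differed by -0.064. Thus 5 of 9 read above all 5 other arrays, as did 59.3% of all genes, and 4 of 9 below them, as did 36.4%.

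The same split ran through the whole table. When the genes were split by control mean into 10 classes of 1768 or 1769, the class from 9.05 to 9.88, which holds ACADM and ACADVL, had a median deviation of -1.34 on replicate 1. The brightest class, from 9.88, which holds HADHA, had -2.13, and the class from 5.33 to 6.06, which holds ACADL, had 1.32. On each of the other 5 arrays ACADM and ACADVL lay far above the negative controls. Classes with control means from 2.44 to 7.28 had median deviations of 1.04 to 1.32 on replicate 1. The summed list of genes expected in MDA-MB-231 was lower there, at 12.99 against 13.99 to 14.02 on the controls. The summed list of genes absent or low in this line was higher there (12.77 against at most 12.58). Its brightest gene, KRT8, read 12.55 against a control mean of 11.61. Within that list KRT18 (7.33 against 11.19) and EPCAM (6.90 against 7.43) were lower, and the other measured genes were higher. All 5 marker lists of other tissues were also higher on this array. Within them only CYP2E1 of the liver list lay below its control mean, at 5.36 against 5.79. The summed log2 signals were 8.70 for adipocytes, 9.73 for liver, 9.45 for leukocytes, 9.67 for endothelium and 10.99 for muscle and heart, against at most 7.60, 8.63, 8.28, 8.76 and 10.23 on a control array, and their part in the values of the 9 genes was not tested.

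**Figure D3:**
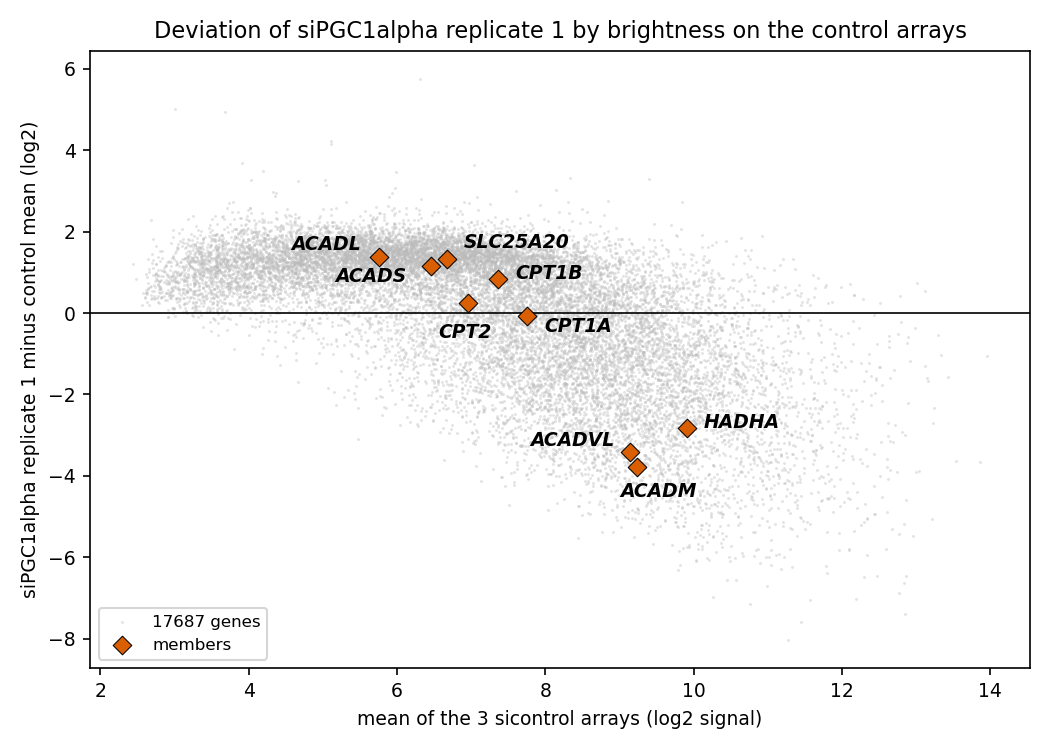
Deviation of siPGC1alpha replicate 1 from the control mean (vertical axis, log2) against the mean of the 3 control arrays (horizontal axis, log2 signal) for 17687 genes in grey and the 9 members as diamonds. ACADM, ACADVL and HADHA lie at -3.79 to -2.84, with replicate 1 signals of ACADM and ACADVL below the negative control percentile, among bright genes that also lie mostly below 0, and the other 6 members lie between -0.064 and 1.38.

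The pathway around the shuttle was described by 7 lists with 82 genes, of which 75 were measured. None of the 75 passed the test with or without replicate 1 (0 and 0 by limma), and 3 had an unadjusted p under 0.05 without it (4% of the 75, against 4.44% of all genes). Without replicate 1, 43 of the 75 differences were above 0 and 32 below. With all 6 arrays the medians of the 7 lists ran from -0.54 for ketone body enzymes to 0.28 for transcriptional regulators. Of the 75 genes, 52 had differences of opposite sign with and without replicate 1, among them 16 of the 21 named below. The share over all genes was not counted. In the following, the first value is without replicate 1 and the second with all 6 arrays, and counts above and below 0 are without it.

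Genes of fatty acid uptake and activation (17 of 18 measured) had medians of -0.0040 and 0.26, with 8 above 0 and 9 below. SLC27A6, a fatty acid transport protein, read 4.13, 3.97 and 4.21 on the controls and 3.82 and 3.72 on replicates 2 and 3, a difference of -0.33 (SE 0.096, unadjusted p = 0.011, limma adjusted p = 0.9998). All these signals were below the 95th percentile of the negative controls, and with replicate 1 the difference was 0.37 (SE 0.60). SLC27A3, of the same family, differed by 0.18 (SE 0.11) and 0.46 (SE 0.32). The fatty acid receptor and transporter CD36 differed by -0.14 (SE 0.097) and 0.15 (SE 0.31), with 1 of the 5 arrays above that percentile.

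Genes that supply carnitine or form other carnitine esters (8 of 8) had medians of 0.043 and -0.14. TMLHE, the first enzyme of carnitine synthesis, read 4.19, 4.65 and 4.67 on the controls and 4.86 and 4.87 on replicates 2 and 3, a difference of 0.37 (SE 0.15, unadjusted p = 0.049, limma adjusted p = 0.9998), also at signals under that percentile. With replicate 1 it was 1.03 (SE 0.59). BBOX1, the last enzyme of carnitine synthesis, differed by -0.27 (SE 0.13) and 0.24 (SE 0.47), with 0 of the 5 arrays above the percentile. ALDH9A1, an aldehyde dehydrogenase of the same route, differed by 0.049 (SE 0.086) and -0.57 (SE 0.54).

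The rest of the mitochondrial spiral (16 of 16) had medians of 0.028 and -0.29, with 12 above 0 and 4 below. ACAD10, a member of the acyl-CoA dehydrogenase family, read 6.62, 6.61 and 6.61 on the controls and 6.96 and 6.90 on replicates 2 and 3. The groups did not overlap, and the difference was 0.32 (SE 0.071, unadjusted p = 0.0032, limma adjusted p = 0.9998). On replicate 1 the gene read 5.21, below the negative control percentile of that array, and the difference over 6 arrays was -0.26 (SE 0.50). DECR1, a reductase needed for unsaturated fatty acids, differed by 0.12 (SE 0.070) and -1.12 (SE 1.02), and its replicate 1 signal of 5.68 was also below that percentile. The thiolase ACAA2 differed by 0.14 (SE 0.12) and -0.15 (SE 0.32). Of the 16 genes, 14 lay below the control mean on replicate 1, with a median of -1.25. Of all 17687 genes, 6759 did so, with a median of 0.61, and the deviation varied with brightness as described above.

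Peroxisomal oxidation (12 of 15) had medians of 0.040 and -0.10, with 7 above 0 and 5 below. ABCD2, a peroxisomal transporter of fatty acyl-CoA, differed by -0.22 (SE 0.098) and 0.13 (SE 0.35), with 0 of the 5 arrays above the negative control percentile. The reductase PECR differed by 0.14 (SE 0.093) and -0.088 (SE 0.28), and the peroxisomal thiolase ACAA1 by -0.11 (SE 0.077) and 0.11 (SE 0.27). Enzymes that set malonyl-CoA, with the AMPK subunits (10 of 10), had medians of 0.014 and 0.077. ACACB, the acetyl-CoA carboxylase at the mitochondrial surface, differed by 0.25 (SE 0.17) and 0.33 (SE 0.26). MLYCD, which breaks malonyl-CoA down, differed by -0.11 (SE 0.097) and 0.20 (SE 0.33), and PRKAG2, an AMPK subunit, by 0.069 (SE 0.072) and -0.22 (SE 0.31).

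Transcriptional regulators of the pathway (9 of 10) had medians of -0.0036 and 0.28. PPRC1, a relative of PGC-1alpha, differed by 0.12 (SE 0.077) and -0.017 (SE 0.23), and the nuclear receptor PPARA by -0.12 (SE 0.082) and 0.30 (SE 0.39). PPARG, of the same family, differed by 0.063 (SE 0.073) and -0.92 (SE 0.82). Ketone body enzymes (3 of 5) had medians of -0.090 and -0.54. OXCT1, which attaches CoA to acetoacetate, differed by -0.10 (SE 0.087) and -0.41 (SE 0.32), and BDH1, 3-hydroxybutyrate dehydrogenase, by -0.090 (SE 0.11) and -0.54 (SE 0.42). The thiolase ACAT1 differed by 0.052 (SE 0.091) and -1.31 (SE 1.12). On replicate 1 PPARG and ACAT1, at 5.34 and 4.95, were below the negative control percentile. None of the genes named from these lists passed the test over all genes.

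**Figure D4:**
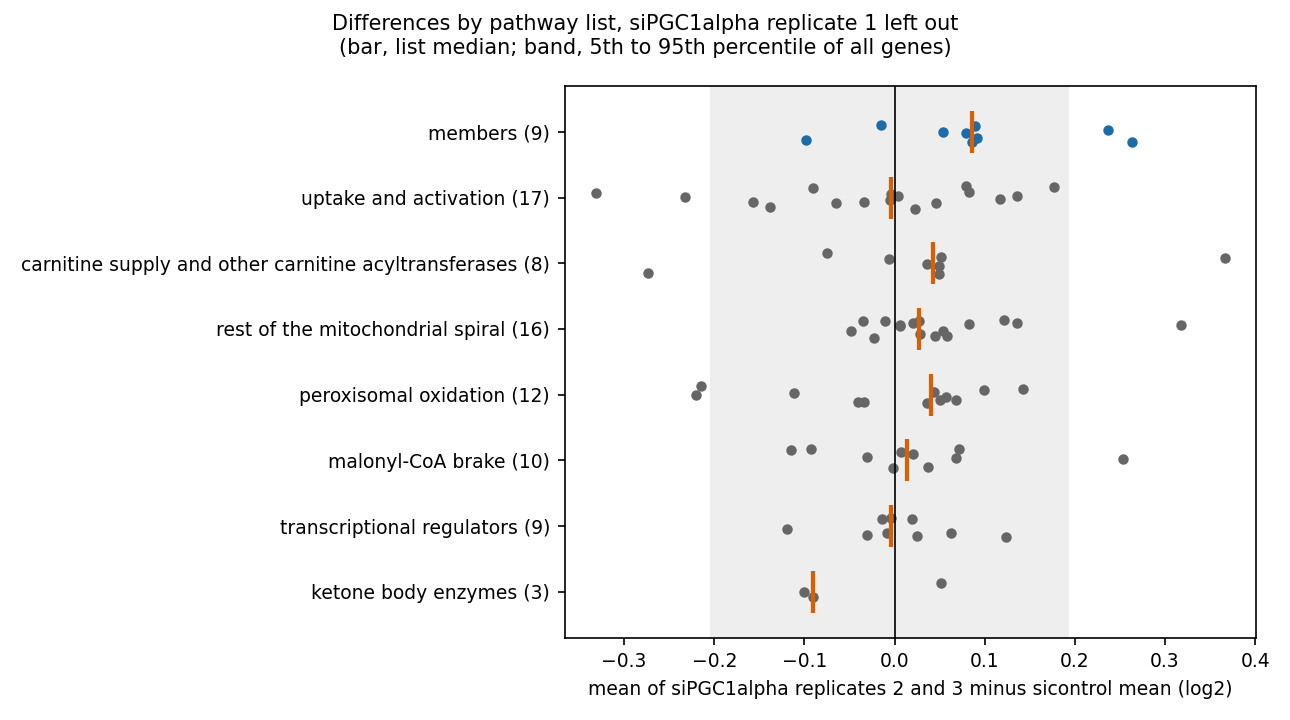
Difference between siPGC1alpha replicates 2 and 3 and the controls (horizontal axis, log2) for the 9 members and the measured genes of 7 pathway lists, 1 point per gene, with the list median as a bar. The grey band spans the 5th to the 95th percentile of all genes, -0.20 to 0.19, and SLC25A20 and ACADS are the members to its right.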

How the data were processed

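A total of 6 arrays (n = 3 per group) were compared. The authors deposited log2 signals per probe set. The base of the logarithm was inferred from the range of the values, and the sources used here name no method of background correction, normalization or summarisation. A second deposited table was left out, since the names of its 6 columns fit no sample label. Of 24320 probe sets, 17709 had 1 gene symbol, 0 had several and 6611 had none in the platform annotation, and 17709 gene identifiers matched RefSeq (GRCh38.p14). The probe set with the highest mean was kept for the 20 genes with more than 1, leaving 17687 genes. No detection call was used. Array medians over these genes were 7.28 to 7.30. Precision is limited by the number of arrays.

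The test was limma's (version 3.58.1 under R 4.3.3, lmFit and eBayes, no covariate), fitted on all genes, with Benjamini-Hochberg adjustment at 0.05. Differences are siPGC1alpha minus sicontrol. The members, the lists and the settings were chosen with earlier results of these data known. Named genes were the members, PPARGC1A and, per list, the 3 genes with the smallest unadjusted p without siPGC1alpha replicate 1. HADHB was named outside this rule, as the partner of HADHA. Settings varied were quantile normalization, median centring, a filter on dim genes at the 25th percentile, the mean of probe sets, trend and robust eBayes, a replicate block, array weights, an adjusted p under 0.1 and arrays left out. The main fit had no block. Correlations of deviations from group means between same-numbered arrays were -0.25, -0.18 and -0.086 for numbers 1, 2 and 3. The siPGC1alpha mean includes the deviating replicate 1, so these correlations follow that array and cannot show whether arrays were paired.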

Additional observations from a re-analysis of the deposited data

Results flagged for a closer look

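On siPGC1alpha replicate 1, 2 classes of control probe sets that take no part in the comparison of genes were brighter than on each control array. The 63 ERCC spike-in probe sets had a median of 6.50 there against at most 5.11, and the 612 negative control probe sets 3.79 against at most 3.44. The 2197 positive control probe sets went the other way, with a median of 8.41 against 10.39 to 10.43 on the controls. This is the array on which ACADM, ACADVL and HADHA read low.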

How the results depend on the processing

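Under every setting run, 0 genes and 0 members passed limma's test. Outside the settings that leave out an array, directions turned only with array weights, which gave siPGC1alpha replicate 1 a weight of 0.0105 against 1.62 to 3.29. CPT2 turned to -0.041, ACADM to 0.061 and HADHA to 0.093, and so did the medians of uptake (0.26 to -0.0025), carnitine supply (-0.14 to 0.029), the rest of the spiral (-0.29 to 0.031), peroxisomal oxidation (-0.10 to 0.025) and regulators (0.28 to -0.013). The median of the malonyl-CoA genes became 0.016 without turning. Leaving out siPGC1alpha replicate 1 together with quantile normalization, median centring or trend and robust eBayes gave -0.015, -0.017 and -0.015 for CPT2, 0.060, 0.077 and 0.079 for ACADM, 0.067, 0.088 and 0.089 for HADHA, and 0.0058, 0.012 and 0.014 for the median of the malonyl-CoA genes. With dim genes left out, the median of the carnitine supply list was -0.43, over fewer genes. The replicate block left 0 calls. In this balanced design a block cannot change a difference, so the members' median of 0.073 was bound to stay. Whether the groups' shared numbers pair the arrays could not be told from these data. Over all settings that leave out arrays, the members' median ranged from 0.039 to 0.16 that of the malonyl-CoA genes from -0.0062 to 0.13, of uptake from -0.048 to 0.50, of carnitine supply from -0.21 to 0.052, of the rest of the spiral from -0.55 to 0.050, of peroxisomal oxidation from -0.24 to 0.074, of regulators from -0.0083 to 0.48 and of ketone body enzymes from -0.78 to 0.0013. Differences ranged from -0.013 to 0.13 for CPT1A, -0.019 to 0.52 for CPT1B, -0.084 to 0.16 for CPT2, -1.89 to 0.15 for ACADM, -0.19 to 0.74 for ACADL, -1.38 to 0.11 for HADHA and -0.0053 to 0.76 for PPARGC1A. SLC25A20 (0.17 to 0.80), ACADS (0.21 to 0.73) and ACADVL (-1.77 to -0.069) kept their sign throughout. For these genes the groups did not overlap over all 6 arrays, so leaving out arrays alone was bound to keep the sign. Apart from the weight and the arrays left out, the cause of these moves was not tested.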
